A study of Strongylocentrotus purpuratus with 5 samples.

Results

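Regions of open chromatin that were present in sea urchin embryos at 20 h, absent at 12 h and placed close beside a region already open at 12 h numbered 9131, out of 258515 accessible regions at 20 h. They were selected on the peak lists themselves. A region of the pooled 20 h list was taken when it shared no base with the pooled 12 h list, when the nearest 12 h region on its scaffold lay at most 1000 bp away, and when a peak of 20 h replicate 2 and a peak of at least 1 technical replicate of 20 h replicate 1 overlapped it by at least 1 bp. Absence at 12 h, distance below 1000 bp and presence in both 20 h replicates were thus fixed by the choice, and what follows is a description of the chosen regions with no test.

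The assay was ATAC-seq, whose transposase inserts sequencing adapters into DNA that nucleosomes leave bare, in whole *Strongylocentrotus purpuratus* embryos, a purple sea urchin, grown at 15 °C. The 20 h embryos gave 3 libraries, with technical replicates 1 and 2 coming from biological replicate 1 and the other library from biological replicate 2, and the 12 h embryos gave 2 libraries from 2 biological replicates. No embryo was treated or carried an engineered allele according to the labels, and each library mixed all cell types of the embryo, so that more open cells and more open chromatin per cell cannot be told apart. The authors prepared nuclei on a density gradient, but used another published method for 1 of the 2 biological replicates at 20 h. Their methods text does not name that replicate. At 20 h, the method and the replicate cannot be told apart.

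In the embryo, each developmental gene is usually served by several regulatory elements, which bind transcription factors and are opened as nucleosomes are moved aside. Enhancers of one gene often lie within a short stretch of DNA, and an element may open next to another that is already in use. Blastula embryos at these ages are activating the regulatory genes that set up the embryonic territories, and an open region marks where factors can reach DNA but not whether the DNA activates, silences or starts transcription.

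Of the 258515 regions at 20 h, 94077 overlapped no 12 h region, which was 36.4% of them. A 12 h region lay within 1000 bp of 47686 of these 20 h only regions, and 9131, or 19.1%, had a peak in both biological replicates. Replicate 1 supplied a peak to 43526 of the 47686 nearby regions and replicate 2 to 11127, so that the number chosen was set mainly by replicate 2. A further 2164 nearby regions had a peak in none of the 3 libraries and existed in the pooled list alone. Replicate 2 held 160654 peaks and technical replicate 1 248700, and technical replicate 2 held 300000, the largest number the authors kept. Replicate 2 was sequenced least deeply of the 20 h libraries, and the 12 h pool more deeply than the 20 h pool. In the quality report of the authors, technical replicate 2 had by far the most duplicate reads and the smallest share of distinct fragments among the 20 h libraries. The part of these library differences in the values below was not tested. Whether weak 12 h signal below the peak threshold lay under the chosen regions was not tested.

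Among the 9131 regions, 3004 (32.9%) carried a peak in all 3 libraries, 2776 in replicate 2 and technical replicate 1 only, and 3351 in replicate 2 and technical replicate 2 only. Regions found in all 3 libraries had a median length of 330 bp, against 211 and 210 bp for those lacking one technical replicate. Each technical replicate of the same biological replicate thus lacked about as many of these regions as the pair had in common. The chosen regions lay on 2213 of the 7795 scaffolds with a 20 h region. Scaffolds 57 and 70 held the most, 33 each, scaffold 5 held 31 and 804 scaffolds held 1. Over the 326 scaffolds with at least 200 regions at 20 h, the chosen regions made up from 0.321% to 8.64% of the 20 h regions, with a median of 3.96%.

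The strongest regions are given first. They were ranked by the lowest of the 3 fold enrichments, where the fold enrichment of a peak is its signal at the summit over the local background of the same library, as the peak caller of the authors gave it. Where several peaks of a library overlapped a region, the peak with the highest −log10 p was used. The summit of replicate 1 was that of the technical replicate with the higher −log10 p at the region. Means over replicates were taken after averaging the technical replicates, so that n is 2 biological replicates.

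Scaffold 1150:201478-201832 (genome version 3.1, 355 bp) stood apart. Technical replicates 1 and 2 gave it fold enrichments of 12.3 and 17.1 and replicate 2 one of 7.31, with a mean of 11.0 ± 5.25 (SD, n = 2). The summits of replicate 2 and of replicate 1 lay 13 bp apart. Its 12 h neighbour was a region of 181 bp at a distance of 361 bp, and a 20 h region of 241 bp covered that neighbour, with fold enrichments of 9.65, 18.6 and 8.77 in the same order of libraries. The element that appeared at 20 h was thus about as strongly enriched as the one that was open at both ages beside it, with technical replicate 1 higher at the new region and the other 2 libraries higher at the old one.

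Next came scaffold 234:659049-659354, with fold enrichments of 7.42, 8.30 and 6.57 in technical replicates 1 and 2 and replicate 2 and a mean of 7.22 ± 0.912 (SD, n = 2). Its 12 h neighbour, 176 bp long and 265 bp away, overlapped no 20 h region. The pooled lists thus held accessibility on one side of the gap at 12 h and on the other at 20 h. Of the 20 h libraries, technical replicate 2 alone had a peak at the neighbour, so that it was not closed in every library. Scaffold 116:5568-6313 (746 bp) had fold enrichments of 6.43, 4.29 and 4.88, and the 2 nearest 12 h regions, 684 and 806 bp away on either side, framed it. The nearer of them overlapped no 20 h region and no peak of any library.

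A neighbour closed at 20 h by the pooled list also stood 320 bp from scaffold 1199:13968-14431, with fold enrichments of 4.40, 4.19 and 7.07. Technical replicate 2 had a peak at that neighbour. Scaffold 5540:1236-2131 (896 bp) was the most even of the 10, with 4.21, 4.20 and 4.14 in the 3 libraries and a mean of 4.17 ± 0.0482 (SD, n = 2). Summits of its 2 replicates were nonetheless 382 bp apart, so that equal fold enrichment did not mean the same summit. The 12 h neighbour of scaffold 1070:41791-42276 lay only 25 bp away, and the region had 7.59 and 3.86 in technical replicates 1 and 2 and 7.07 in replicate 2, with replicate summits 13 bp apart. Here the technical replicates differed from each other more than replicate 2 differed from technical replicate 1.

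Completing the 10 strongest were 4 regions, namely scaffold 116:414909-415322, scaffold 64:751697-752118, scaffold 1699:165917-166152 and scaffold 1741:353511-353957. Their lowest fold enrichment was between 3.86 and 4.10, in technical replicate 2 each time. All 4 had a neighbour that was still open. On scaffold 1741 the 12 h neighbour was 26 bp away, and a best peak of the new region reached a 12 h region. Technical replicate 2 and replicate 2 gave 3.86 and 5.11 both here and at the 20 h region covering the neighbour. A peak that ran over both regions can give such equal values.

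**Figure D1:**
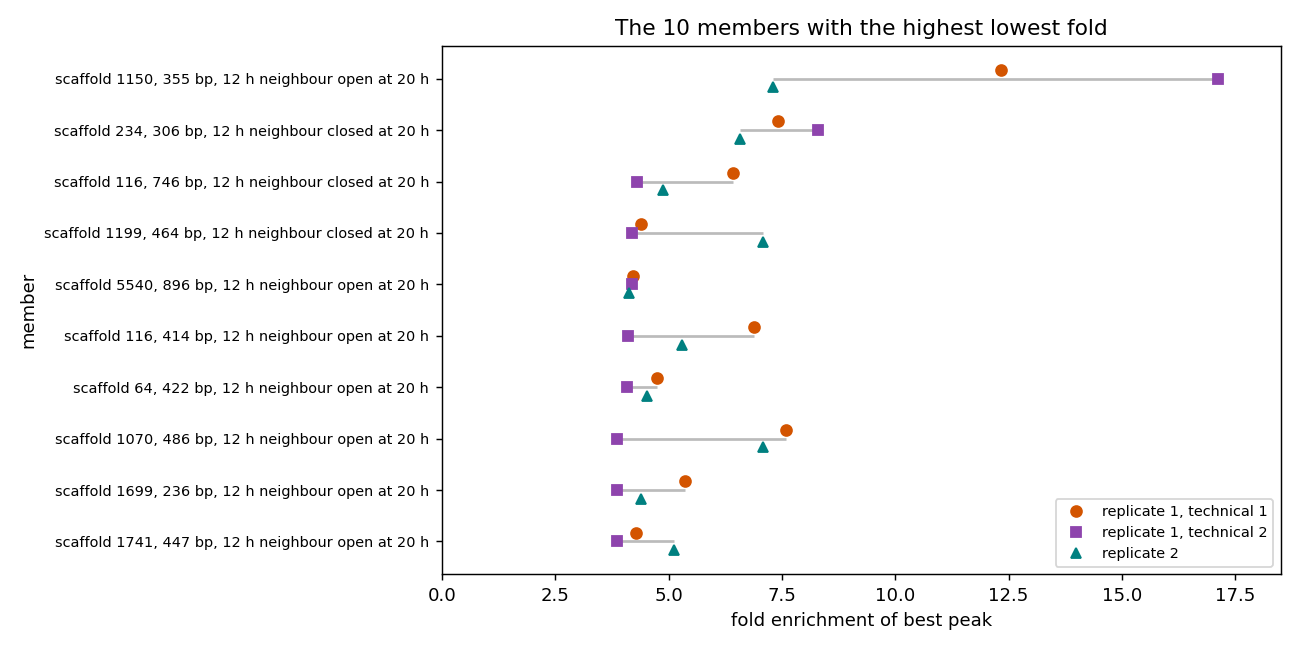
Fold enrichment of the best peak (horizontal axis) in each 20 h library for the 10 chosen regions with the highest lowest fold, with circles for technical replicate 1, squares for technical replicate 2, triangles for replicate 2 and a grey line from the lowest to the highest value. Scaffold 1150 spans 7.31 to 17.1, and the 3 regions below it face 12 h neighbours that overlapped no 20 h region.

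Such values were rare among the chosen regions. Of the 3004 regions with a peak in all 3 libraries, 98 reached a fold enrichment of 3 in every one of them, 2 reached 5, namely those on scaffolds 1150 and 234, and 0 reached 10. In single libraries, 143 regions reached 5 in replicate 2, 75 did in technical replicate 1 and 55 did in technical replicate 2. The 95th percentiles were 4.22 and 3.86 in technical replicates 1 and 2 and 3.97 in replicate 2. Over all 20 h regions with a peak they were higher, at 5.22, 5.15 and 7.50, so that such values were less rare there.

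The median fold enrichment of the 9131 regions was 2.78 in technical replicate 1 (middle 50% from 2.42 to 3.22, n = 5780 with a peak), 2.58 in technical replicate 2 (2.25 to 3.01, n = 6355) and 2.65 in replicate 2 (2.19 to 2.92, n = 9131). Each median stood below that of all 20 h regions with a peak in the library, which was 3.11, 2.99 and 2.92. Regions that overlapped a 12 h region and were found in both replicates had medians of 3.22, 3.15 and 2.92. The chosen regions ranked below the middle in fold enrichment in each library. Their median ranks were at the percentiles 37.0, 30.2 and 32.3 of the 20 h regions with a peak in the library.

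Regions of the same neighbourhood that failed to appear in both replicates had slightly higher medians, at 2.92 in technical replicate 1, 2.65 in technical replicate 2 and, for the 1996 with a replicate 2 peak, 2.91 in replicate 2. The requirement of a peak in both replicates therefore did not pick the nearby regions with the highest fold enrichment. Regions found in both replicates but more than 1000 bp from any 12 h region had medians of 2.87, 2.67 and 2.86. The chosen regions were thus lower than these in every library, by less than the width of the middle 50% of either set.

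**Figure D2:**
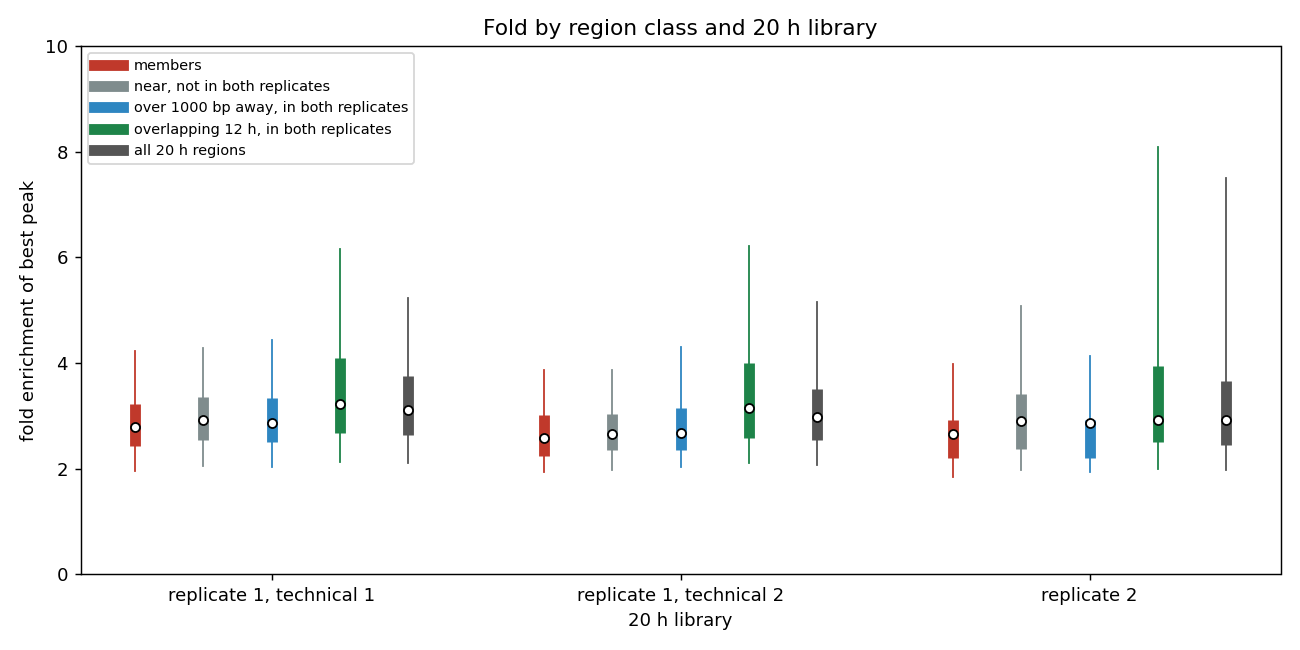
Fold enrichment of the best peak (vertical axis) in the 3 libraries of 20 h for the chosen regions and for 4 comparison sets, with a white point at the median, a thick bar over the middle 50% and a thin line between the 5th and 95th percentiles. The chosen regions have medians of 2.78, 2.58 and 2.65, below all 20 h regions in each library.

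Many of these regions missed a stricter limit in single libraries. The best peak had a q below 0.05 in 2941 of 5780 regions in technical replicate 1 (50.9%), in 3084 of 6355 in technical replicate 2 (48.5%) and in 1757 of 9131 in replicate 2 (19.2%). Over all 20 h regions with a peak, the same shares were 63.5%, 66.6% and 40.4%. In 1000 of the chosen regions (11.0%) a peak of each replicate had a q below 0.05, in 4216 only replicate 1 did, in 757 only replicate 2 did and in 3158 (34.6%) neither did. These 3158 regions thus rested on peaks that passed the p threshold of 0.05 alone. The split by replicate is given without its shares over other 20 h regions, so it is not read as particular to the chosen ones.

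Fold enrichments in replicate 2 were coarse. A single value, 2.92, was the fold enrichment of 1157 of the 9131 regions (12.7%), whereas the most frequent value covered 4.10% of the regions in technical replicate 1 and 5.82% in technical replicate 2. Many replicate 2 values therefore could not be ranked against each other. Replicate 2 was higher than replicate 1 in 4100 regions (44.9%), with a median log2 ratio of replicate 2 over replicate 1 of −0.05 (middle 50% from −0.33 to 0.22). The replicates were within 2 fold of each other in 8886 regions (97.3%). Most values lay in a narrow range, from 1.84 to 3.97 in replicate 2 (5th to 95th percentile), so that this share says little about agreement.

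Level agreed little from region to region. Among the 3004 regions with a peak in both technical replicates, fold enrichment had a Spearman correlation of 0.15 and a Pearson correlation of 0.27 between them. Between replicate 2 and technical replicate 1 the correlations were 0.05 and 0.08 (n = 5780), and between replicate 2 and technical replicate 2 they were 0.08 and 0.12 (n = 6355). Regions that overlapped a 12 h region and were found in both replicates had Spearman correlations of 0.48, 0.32 and 0.35 for the same pairs of libraries, and those over 1000 bp from any 12 h region had 0.23, 0.09 and 0.13. Low agreement in level was thus shared with the other replicated 20 h only regions. These are correlations across regions of the same libraries, which are not replicates, over a narrow range of values. Where 2 libraries both had a peak at the chosen regions, they hardly ranked them alike.

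Among the 3004 regions with a peak in all 3 libraries, replicate 2 exceeded replicate 1 most at scaffold 356:264241-264554, with 2.02 and 2.94 in technical replicates 1 and 2 and 10.6 in replicate 2. Scaffold 509:259772-260214 had 2.13, 2.62 and 9.0, and scaffold 659:37237-37627 had 2.27, 2.15 and 7.84. In all 3, the replicate 2 peak extended into the 12 h neighbour and had the same fold enrichment there, and its summit lay 670, 819 and 544 bp from that of replicate 1. The replicate 2 values of these 3 regions were therefore values of a peak centred outside them.

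In the opposite direction, among the same 3004, the region on scaffold 61:1140065-1140418 had 3.93, 6.51 and 1.86 in technical replicates 1 and 2 and replicate 2. Scaffold 77:966916-967460 had 4.29, 6.64 and 2.11, and scaffold 275:248978-249332 had 5.99, 4.01 and 1.97. None of the best peaks of these 3 regions reached a 12 h region, so that here the libraries differed at the region itself. The preparation of nuclei differed between the same libraries, and its part in the difference was not tested.

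Peaks that ran on into 12 h territory were a minority overall. The best peak of at least 1 library overlapped a 12 h region as well as the chosen region in 1039 of 9131 regions (11.4%), namely in 550 by the replicate 2 peak, in 278 by that of technical replicate 1 and in 277 by that of technical replicate 2. The share was 50.9% of the regions up to 100 bp away, 15.1% of those over 100 and up to 250 bp, 2.18% of those over 250 and up to 500 bp and 0.131% of those beyond. When only library peaks clear of every 12 h region were counted, 8315 regions (91.1%) still had a peak in both replicates. The summit of the best peak lay inside the chosen region in 92.5% and 94.7% of regions for technical replicates 1 and 2 and in 84.7% for replicate 2, and in both replicates at once in 7247 regions (79.4%). Over all 20 h regions with a peak, the library shares were higher, at 95.5%, 96.2% and 91.1% in the same order.

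The median distance to the 12 h region was 348 bp, with the middle 50% from 163 to 597 bp. It was 379 bp (184 to 627) for the nearby 20 h only regions that lacked a peak in one of the replicates. Of the chosen regions, 1272 (13.9%) lay within 100 bp, 3458 (37.9%) within 250 bp and 6076 (66.5%) within 500 bp, against 11.4%, 34.3% and 63.1% of the nearby regions not in both replicates. Within 50 bp lay 476 regions, and 5 of them touched the 12 h region with no base between.

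The share of 20 h only regions found in both replicates was 22.4% up to 100 bp (95% Wilson interval 21.4 to 23.6), 19.9% over 100 and up to 250 bp, 19.1% over 250 and up to 500 bp and 17.7% over 500 and up to 1000 bp (17.1 to 18.3). These intervals cover counting error only, and regions on a scaffold are not independent. This order turned round at the near end when only library peaks clear of 12 h regions counted. The share was then 13.3% (12.4 to 14.2), 17.6%, 18.7% and 17.7% in the same 4 classes of distance. Leaving out peaks that touch a 12 h region removes support mostly at the shortest distances by construction, so that what the higher share there rests on was not settled by it.

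Beyond 1000 bp the share, counting any peak, was lower still, at 17.1% up to 2000 bp, 13.2% up to 5000 bp and 8.06% over 5000 bp. The libraries did not move together. Replicate 2 had a peak at 27.3% of 20 h only regions up to 100 bp away and at 9.91% of those over 5000 bp away. Technical replicate 1 had one at 60.9% and 54.7%, and technical replicate 2 at 62.1% and 75.7%, in the same classes. Replicate 2 thus had fewer and technical replicate 2 more of the 20 h only regions far from 12 h chromatin. The preparation of nuclei differed between the 20 h replicates, and its part in this was not tested.

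**Figure D3:**
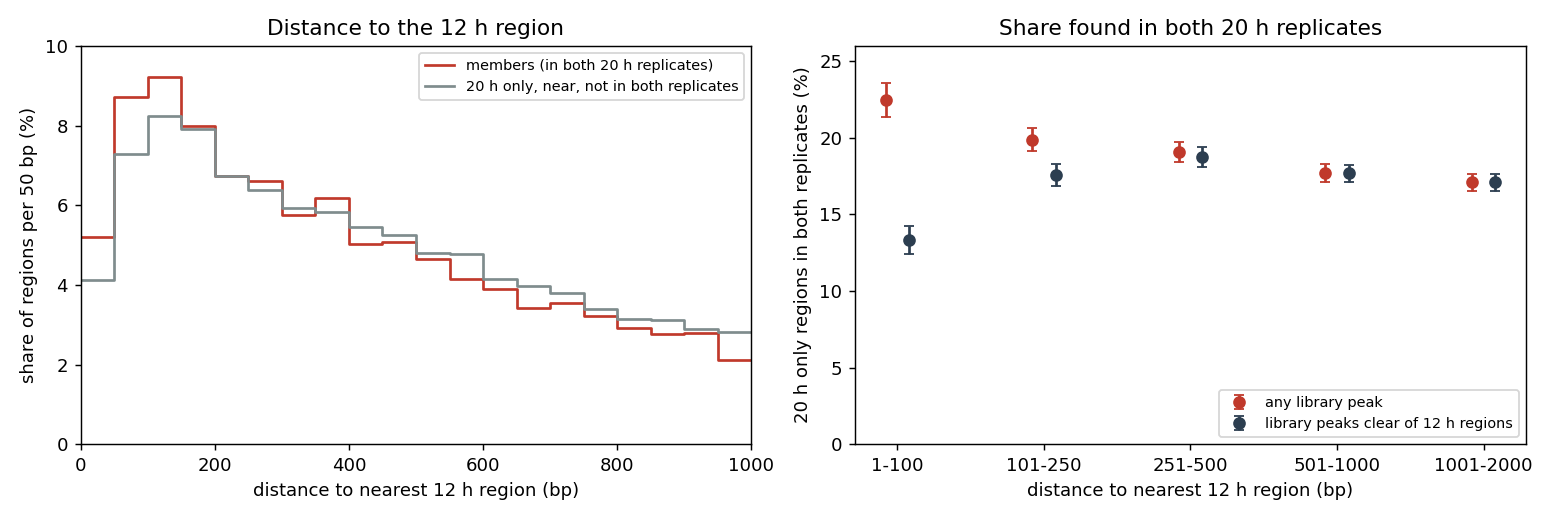
Left, share of the chosen regions (red) and of nearby 20 h only regions not in both replicates (grey) per 50 bp of distance to the nearest 12 h region. Right, share of 20 h only regions found in both replicates by distance, with 95% Wilson intervals, counting any library peak (red, 22.4% up to 100 bp) or only peaks clear of 12 h regions (dark, 13.3%).

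The limit of 1000 bp cut through a smooth range. The regions on scaffold 57:942383-942568 and on scaffold 9:1570770-1570919 lay just inside it, at 1000 bp, with fold enrichments of 2.68 and 2.85 in replicate 1 and 1.89 and 1.88 in replicate 2. Those on scaffold 1896:278985-279138 and on scaffold 219:445886-446142 lay just outside, at 1001 bp, with 2.29 and 2.71 in replicate 1 and 2.86 and 2.80 in replicate 2. There were 447 replicated regions in the last 100 bp inside the limit and 466 in the first 100 bp outside it.

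The nearest pairs were adjacent on the scaffold. The region on scaffold 66:832943-833230 began at the base after its 12 h neighbour ended, and had fold enrichments of 2.36, 2.96 and 3.13 in technical replicates 1 and 2 and replicate 2, with replicate summits 10 bp apart. That neighbour, 293 bp long, overlapped no 20 h region, although peaks of technical replicate 1 and replicate 2 reached it. The pooled lists thus held adjoining stretches, the one at 20 h and the other at 12 h.

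On scaffold 374:563414-563847, which also touched its 12 h neighbour, the fold enrichments were 2.33, 2.61 and 2.19. The neighbour was still open there, and the 20 h region covering it began 149 bp away, with a shift of its near edge of −148 bp, where a negative shift is into the 12 h region. Scaffold 223:163938-164331, at 2 bp, showed the same layout with a shift of −247 bp, and scaffold 72:80097-80627, at 3 bp, with a shift of −48 bp. In these 3 cases no region was listed at 20 h between the chosen region and what was left of its neighbour.

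The nearest 12 h region overlapped a 20 h region for 6022 of the 9131 chosen regions (66.0%, Wilson 65.0 to 66.9). The share was 66.5% for neighbours of nearby 20 h only regions not in both replicates and 65.6% for neighbours of replicated regions more than 1000 bp away, and 63.9% of all 12 h regions overlapped a 20 h region. Most neighbours were thus still open, at close to the share of 12 h regions as a whole. It varied little with distance, between 65.0% up to 100 bp and 66.7% over 100 and up to 250 bp.

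When open meant a library peak in both 20 h replicates, 3623 neighbours (39.7%, Wilson 38.7 to 40.7) were open, against 29.0% of the neighbours of nearby regions not in both replicates, 33.9% for replicated regions farther away and 32.2% of all 12 h regions. For replicated 20 h regions that overlapped a 12 h region, the next 12 h region was open in this sense in 38.3%, close to the value of the chosen regions. Some of these peaks were the ones that also supported the chosen region. Among the 8092 regions whose best peaks touched no 12 h region the share was 37.0%. The value used the same libraries as the choice, so the difference from the other sets is a description.

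**Figure D4:**
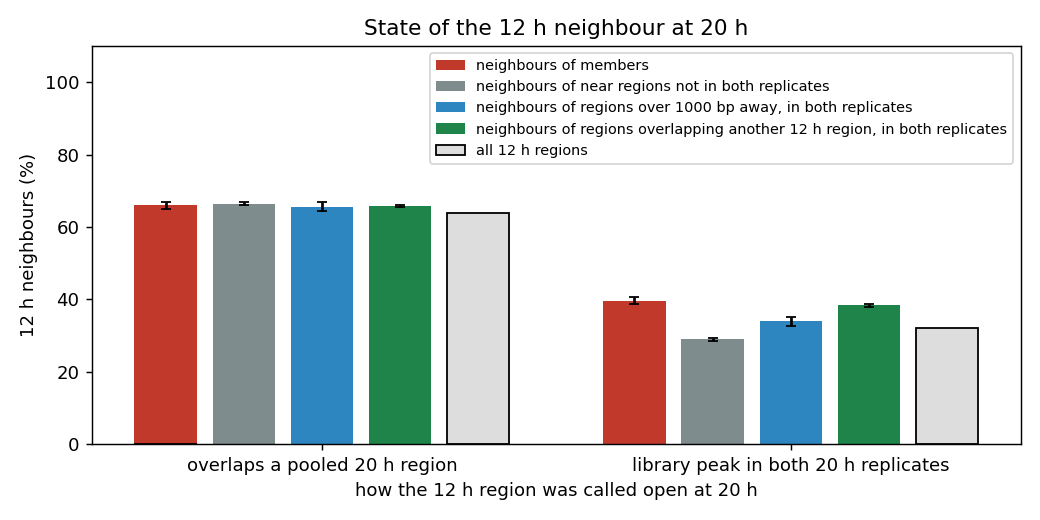
Share of 12 h neighbours that were open at 20 h (vertical axis) for the chosen regions, for nearby regions not in both replicates, for replicated regions over 1000 bp away and for replicated regions overlapping another 12 h region, with 95% Wilson intervals, beside the share of all 12 h regions. By the pooled 20 h list the bars are close together, at 66.0%, 66.5%, 65.6%, 65.8% and 63.9%, and by a peak in both 20 h replicates they are 39.7%, 29.0%, 33.9%, 38.3% and 32.2%.

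Chosen regions with an open and with a closed neighbour were alike in themselves. Median length was 245 bp with an open and 240 bp with a closed neighbour, and the median fold enrichments were 2.80 and 2.70 in technical replicate 1, 2.58 and 2.58 in technical replicate 2 and 2.68 and 2.62 in replicate 2. The neighbours differed more, with a median 12 h length of 401 bp where open and 259 bp where closed. Shorter 12 h neighbours thus more often lacked a region in the pooled 20 h list, and the chosen regions beside them were of about the same size. A longer region meets an overlap of 1 bp more easily, and the part of this was not tested.

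Of the 3109 closed neighbours, 1364 (43.9%) had a peak in none of the 3 libraries of 20 h. Peaks of technical replicate 1 reached 514, of technical replicate 2 844 and of replicate 2 781, and 276 (8.88%) had a peak in both replicates although the pooled list held no region there. Closed by the pooled list was therefore not always closed in the libraries. Beside nearby regions not in both replicates, 51.9% of closed neighbours had no library peak and 4.86% had one in both replicates. Replicate 2 peaks reached 25.1% of closed neighbours of the chosen regions and 14.1% of those others. For technical replicates 1 and 2 the shares were 16.5% against 15.4% and 27.1% against 26.3%. A replicate 2 peak at the region was required by the choice. Among the regions with the strongest signal beside a closed neighbour, those on scaffold 379:399260-399468 (3.75, 5.58 and 4.38, at 46 bp) and on scaffold 3024:16104-16638 (3.66, 4.25 and 3.97, at 52 bp) had neighbours with no library peak. In these cases the lists showed open chromatin at 20 h on one side of a short gap and at 12 h on the other.

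Where the neighbour was still open, 52.5% of the 20 h regions that lay nearest at it had a peak in both replicates, against 39.3% beside nearby regions not in both replicates, 47.6% beside replicated regions farther away, 52.5% beside replicated regions that overlapped a 12 h region and 43.9% beside all 20 h regions. The value was thus one shared with other replicated regions. The median gap between the chosen region and the 20 h region at the neighbour was 382 bp. The 20 h edge facing the chosen region lay inside the 12 h edge in 63.1% of 6022 cases and beyond it in 34.5%, with a median shift of −23 bp. On the side facing away the shares were 61.4% and 36.5%, with a median of −21 bp. Beside all 20 h regions the edge lay inside in 61.0% and beyond in 36.5% on the facing side, with a median of −19 bp, and inside in 60.1% and beyond in 37.5% on the far side, with a median of −18 bp. The open neighbours of the chosen regions were thus narrower at 20 h by about as much on either side and much like other 12 h regions still open at 20 h.

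Within the same library, the chosen region had a lower fold enrichment than the 20 h region at its neighbour in most pairs. It was lower in 1481 of 2660 pairs in technical replicate 1 (55.7%), in 2289 of 3590 in technical replicate 2 (63.8%) and in 1925 of 3362 in replicate 2 (57.3%), and equal in 242, 281 and 575. The median log2 ratio of chosen region over neighbour was −0.16 in replicate 1 and −0.09 in replicate 2, with a mean of −0.13 ± 0.05 (SD, n = 2). Without the regions whose best peaks touched a 12 h region, which can give both sides the same peak, it was −0.18 and −0.28, with a mean of −0.23 ± 0.07 (SD, n = 2). With a −log10 p of at least 3 required of the peaks, the mean was −0.020, close to no difference. Nearby regions not in both replicates had medians of −0.14 in replicate 1 and −0.05 in replicate 2 and were higher than their neighbour in 31.8% and 26.8% of pairs, against 31.0% and 25.6% for the chosen regions. The slightly lower level beside an open neighbour was thus seen in both sets.

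A 12 h region lay within 1000 bp on both sides of 2494 chosen regions (27.3%), against 24.0% of the nearby regions not in both replicates. Their nearest neighbour was open in 62.6%, against 67.2% for those with a 12 h region on 1 side. The chosen regions had 8869 different neighbours, of which 8614 had 1 of them, 248 had 2 and 7 had 3. Among the 248 neighbours with 2 chosen regions, 147 had both on the same side and the others had 1 on each. A further member of the set was seldom near, with 542 regions (5.94%) within 1000 bp of another.

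The chosen regions were short. Their median length was 243 bp (middle 50% from 186 to 333), against 195 bp for nearby 20 h only regions not in both replicates, 254 bp for replicated regions farther away, 375 bp for replicated regions that overlapped a 12 h region and 252 bp for all 20 h regions. The shortest length in the list, 150 bp, was that of 625 chosen regions (6.84%), 561 were longer than 500 bp and 14 were longer than 1000 bp. Length went with presence in both replicates, since 12.5% of the nearby regions under 200 bp were chosen, 20.5% of those from 200 to under 250 bp, 25.3% of those from 250 to under 350 bp and 33.2% of those of 350 bp and over. The rule asked for 1 bp of overlap whatever the length.

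Among the chosen regions, 6.92% of those under 200 bp and 67.4% of those of 350 bp and over had a peak in all 3 libraries. Median fold enrichment varied less with length, between 2.67 and 3.02 in technical replicate 1, 2.57 and 2.71 in technical replicate 2 and 2.62 and 2.73 in replicate 2 over these classes. Length thus separated how often the libraries agreed more than how strong they were.

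The longest region lay on scaffold 1107:10710-12212 (1503 bp), with fold enrichments of 4.29, 3.86 and 2.92 in technical replicates 1 and 2 and replicate 2 and replicate summits 480 bp apart. Its 12 h neighbour, 333 bp away, overlapped no 20 h region and no library peak. Scaffold 3096:19891-21234 (1344 bp) had 3.22, 3.86 and 2.92, with summits 633 bp apart, and scaffold 8490:5036-6334 (1299 bp) had 4.27, 3.84 and 2.92, with summits 12 bp apart. Only the last of the 3 had its replicate summits close together, and the other 2 had separate summits. The technical replicates of the last still had summits 279 bp apart, so that the closeness was to 1 of them.

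The choice put a peak of each replicate on the same region, which limits how far apart the peaks can lie, so that agreement in position was largely fixed by it. At least 1 replicate 2 peak overlapped a replicate 1 peak directly in 8875 of 9131 regions (97.2%), and in 98.5% of all 20 h regions with a peak in both replicates. The summits of replicate 2 and replicate 1 lay a median of 85 bp apart (middle 50% from 37 to 166), within 50 bp in 32.5% and within 100 bp in 55.8% of regions. The median was 80 bp in replicated regions that overlapped a 12 h region and 75 bp in replicated regions farther away. Within 50 bp lay the summits of 36.9% and 37.7% of these sets, in the same order. The chosen regions thus had slightly fewer summits within 50 bp of each other than either set. Against regions that overlapped a 12 h region the order turned at wider limits, with 82.0% against 78.1% within 200 bp. The chosen regions were also shorter, at a median of 243 against 375 bp, and the part of length was not tested.

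The technical replicates placed their summits 98 bp apart at the median in the 3004 regions with a peak in both, where the summits of replicate 2 and replicate 1 lay 111 bp apart. The gap was larger in longer regions, with a median of 61 bp under 200 bp and 154 bp at 350 bp and over, and shrank with distance to the 12 h region, with 106 bp up to 100 bp away and 80 bp over 500 bp away. Summits inside a chosen region did not lean toward the 12 h region. They lay on the side nearer to it in 49.0% and 48.8% of regions for technical replicates 1 and 2 and in 49.8% for replicate 2.

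**Figure D5:**
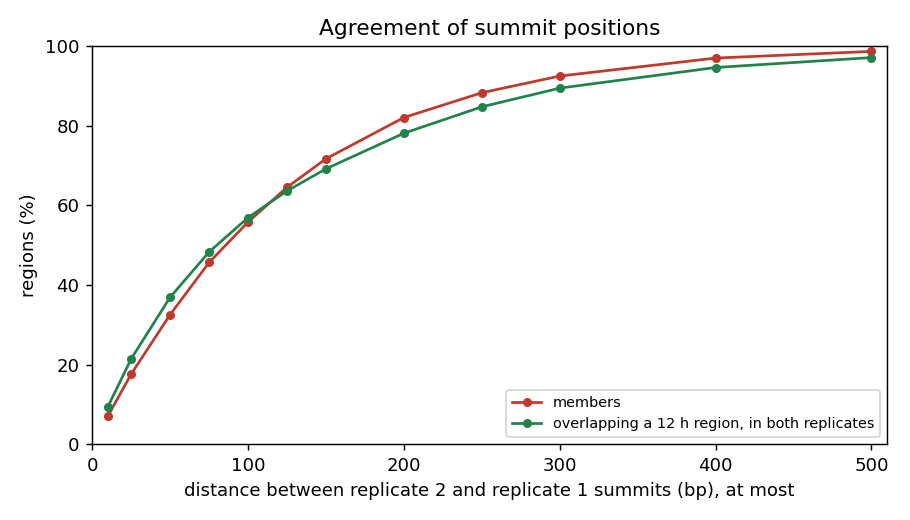
Share of regions (vertical axis) whose replicate 2 and replicate 1 summits lay at most a given number of bp apart (horizontal axis), for the chosen regions (red) and for replicated regions that overlapped a 12 h region (green). Within 50 bp the curves stand at 32.5% and 36.9%, within 100 bp at 55.8% and 56.9% and within 200 bp at 82.0% and 78.1%.

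The study drew on 389 genomic fragments that earlier work had tested in reporter constructs, each named for the developmental gene it was taken from, and 17 chosen regions lay in 16 of them, from 11 genes. In these fragments 69 nearby 20 h only regions were found, of which 24.6% were in both replicates, against 19.1% of all such regions. The chosen regions were 3.26% of the 522 regions at 20 h in the fragments and 3.53% of all 20 h regions, so that the shares were close. Of the 17, 13 had a neighbour that was still open. None of the strongest regions above was among the 17. That ranking took only regions with a peak in all 3 libraries, and several of the 17 lacked a peak in a technical replicate.

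Genes with several such regions came first. Chordin, which encodes a secreted antagonist of BMP signalling, had 3, on scaffold 1440. The pair 92221-92535 and 92649-92803 had fold enrichments of 2.64 and 2.30 in technical replicate 1 and shared a value of 2.82 in replicate 2. Their replicate 2 −log10 p was also equal, at 2.96, so that the same replicate 2 peak may lie under both. The region at 109582-109898 had 2.37 in technical replicate 2 and 2.52 in replicate 2. The first faced a 12 h neighbour closed by the pooled list, at which technical replicate 2 had a peak, and the other 2 an open one.

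IrxA, a homeobox gene of the Iroquois class, also had 3, on scaffold 688:213910-214059, 235290-235773 and 240859-241200, all with an open neighbour at 909, 563 and 871 bp. Their replicate 2 values were 2.73, 2.88 and 2.55. The middle one was in all 3 libraries, with 2.66 and 2.38 in technical replicates 1 and 2, and the others each lacked a technical replicate.

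GataC, which encodes a zinc finger transcription factor, and Nk1, a homeobox gene, had 2 each. The GataC regions on scaffold 704, 560714-561045 and 568878-569216, were in all 3 libraries, with 3.40, 2.00 and 1.90 in technical replicates 1 and 2 and replicate 2 for the first and 2.80, 1.81 and 2.53 for the second. The Nk1 region on scaffold 1564:146632-146966 had 3.04, 2.95 and 2.27, and the one 188684-189067 had 2.67 in technical replicate 2 and 3.74 in replicate 2. All 4 neighbours were open at 20 h.

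The other genes had 1 region each. The forkhead genes FoxG, FoxB and FoxN23 had theirs on scaffold 3:2081693-2082232, scaffold 912:270999-271150 and scaffold 592:180608-180970, at 788, 165 and 608 bp, all 3 beside a neighbour closed at 20 h by the pooled list. The neighbours of FoxB and FoxN23 nonetheless had a peak in both 20 h replicates, and that of FoxG had none. FoxG was in all 3 libraries with 2.47, 2.42 and 3.14. With the first Chordin region these were the 4 of 17 with a closed neighbour.

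Six12, a homeobox gene, had a region on scaffold 143:757226-757605 with 2.72, 2.17 and 2.91 in technical replicates 1 and 2 and replicate 2, 116 bp from an open neighbour of 1141 bp. Id, whose product is a helix-loop-helix protein that blocks the binding of its partners to DNA, had one on scaffold 376:132383-132623 with 1.83, 3.48 and 2.83. Fic had one on scaffold 3326:30098-30399 with 2.09 in technical replicate 1 and 1.99 in replicate 2.

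Dlx, a homeobox gene of the distal-less class, had a region on scaffold 119:820020-820224, 25 bp from its neighbour, with fold enrichments of 5.19 in technical replicate 1 and 1.7 in replicate 2 and no peak of the other library. The value of 5.19 was that of a peak which also covered the open neighbour. The Id, Fic and FoxB regions likewise had a best peak that reached a 12 h region, so that 4 of the 17 were of this kind.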

How the data were processed

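Reads were mapped by the authors to genome version 3.1 in the ENCODE ATAC-seq pipeline. The authors removed duplicates and called peaks with MACS2 (version not given in the sources used here) at a p threshold of 0.05, keeping at most 300000 peaks. The deposited files are a merged region list per stage, called on pooled libraries without scores, and 3 peak lists for 20 h with the fold enrichment ratio, −log10 p and −log10 q of each peak. Read counts and peak lists for single 12 h libraries were not analysed here, so no value was scaled to depth. Technical replicate 1 was sequenced with paired ends and the other 20 h libraries with single ends.

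Overlap meant 1 bp, and distance was counted so that touching regions are 1 bp apart. The functions were checked on simulated regions. With 1 pooled list per stage and 2 biological replicates at 20 h no test was made. The chosen regions and the lists were taken with earlier results of these data known.

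Named regions were, with a peak in all 3 libraries, the 10 with the highest lowest fold, the 4 nearest to a 12 h region and the 3 with the largest replicate difference each way. Added to these were the 5 with the highest lowest fold beside a closed neighbour, the 3 longest, 2 on each side of 1000 bp and all in the reporter fragments the study drew on. No sequence or annotation of version 3.1 was used here. Alternatives were stricter peaks, other distances and overlaps, and leaving out a technical replicate. Python 3.11.15, numpy 2.4.6, pandas 2.3.3 and scipy 1.17.1 were used.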

Additional observations from a re-analysis of the deposited data

How the results depend on the processing

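Of the 7 main values, only the log2 fold ratio over the neighbour has a direction, and it stayed negative in each alternative run for it. Not every alternative was run for every value. The difference by distance given last turned round, and several sizes moved. When peaks needed a −log10 p of 3, 2140 regions were left, with 70.9% of neighbours open, a median length of 0.280 kb, a log2 fold ratio over the neighbour of −0.020 and 95.8% with overlapping replicate peaks. Within 500 bp there were 6076 regions at a median of 215 bp. Leaving out each technical replicate in turn gave 5780 to 6355 regions, 66.0% to 67.0% open, lengths of 0.260 to 0.268 kb, 91.8% to 93.7% with overlapping peaks and summit gaps of 84 to 98 bp. Allowing overlap with 12 h regions of less than 50% of the shorter region gave 70.6% open, 280 bp of distance and 0.251 kb of length. Neighbours covered to 50% were open in 51.2%, and those with a peak in both replicates in 39.7%. Added after seeing the data, the regions whose best peaks touched no 12 h region lay at a median of 394 bp, with a log2 ratio of −0.23 and a summit gap of 78 bp. Counting only library peaks clear of 12 h regions, also added after seeing the data, turned the difference in the share found in both replicates, up to 100 bp away minus over 500 bp away, to −4.37 percentage points, against 4.77. No paired analysis was possible because single 12 h libraries entered no comparison. Depth was limited most by replicate 2, whose peak decided whether most nearby regions were chosen.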
